A study of Caenorhabditis elegans with 2 samples.

Results

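The 10 genes described here are lin-36, lin-13, lin-15B, lin-61, lin-65, hpl-2, met-2, let-418, mep-1 and tam-1, which encode class B synthetic multivulva (synMuv B) and heterochromatin proteins outside the DREAM complex. They were taken by name from the WBcel235 annotation, and all 10 were found among its 19973 nuclear protein-coding genes. Each was searched for binding sites of EKL-4, the worm relative of the chromatin protein DMAP1. EKL-4 was mapped by ChIP-seq with an anti-GFP antibody in whole Caenorhabditis elegans of strain RW12207, whose ekl-4 locus (allele st12207) was edited by CRISPR to encode a TY1, EGFP and 3xFLAG tagged protein. Animals were young adults of 65 h grown from L1 larvae starved after bleaching. There were 2 biological replicates of this 1 group, all of them carrying the tag, and no second condition, so nothing was compared between treatments. Peaks from whole animals do not show in which cells a site was bound.

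SynMuv B genes were found because losing one together with a class A gene gives extra vulvae. Their products repress transcription, keep germline genes silent in somatic cells and act in part through histone H3 lysine 9 methylation: MET-2 is a SETDB1-type methyltransferase that adds the mark, LIN-65 is its partner, and HPL-2 is an HP1-type reader of it. A further synMuv class, C, holds subunits of the TIP60-type acetyltransferase complex, the type of complex to which DMAP1 proteins belong.

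A peak was counted for a gene if its summit fell inside the gene or no more than 1000 bp from a transcript's 5' end. The authors' conservative list, thresholded by IDR (irreproducible discovery rate, which scores whether a peak's rank repeats), was the main list and held 2482 peaks. The thresholded list of replicate 1 held 1495 peaks, that of replicate 2 held 1846, and a larger series-level list held 2847. The rankings without a threshold were far longer, with 83980 peaks behind the conservative list, 88717 behind the larger list, 49388 in replicate 1 and 90719 in replicate 2. Signal is the strength of a peak in the authors' lists, on a scale that is not stated, and rank 1 is the strongest peak of a list. No read depth is known, so no error from depth can be given, and the only replicate check on a signal is the pair of values from the replicates.

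Of the 10 genes, 4 had a conservative summit: lin-36, lin-13, mep-1 and tam-1. Under the same rule 10.6% of all protein-coding genes had one, and counting 5' ends only (1000 bp) left the same 4 genes against 8.82%. The members were chosen with earlier results of these data known, so these shares are a description and not a test of enrichment. Within 500 bp of a 5' end only lin-36 had a summit, against 6.42% of all genes. The other 6 genes, lin-15B, lin-61, lin-65, hpl-2, met-2 and let-418, had no summit in any of the 4 thresholded lists. Most genes were absent from each of these lists: the highest share with a summit was 11.9%, in the larger list. The 4 genes with a summit held 6 in all, 5 of them upstream of the gene and 1 in a coding exon. All 6 peaks were 360 bp wide, the median width of the list, with the summit at the centre, so a summit's place is no finer than that width allows.

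The window around the strongest upstream summit of each of these 4 genes is shown, since it is the called site nearest the gene's start. Each was read from the RefSeq WBcel235 (ce11) genome, holds the summit base with 100 bp on either side, and is written 5' to 3' on the strand of the member gene. Capitals in the windows of lin-36 and lin-13 mark a run of 14 bases that they share in opposite orientation, which was noticed after the sequences were seen. Capitals in the windows of mep-1 and tam-1 mark TTTGAA or its reverse complement, a form of the cell cycle homology region (CHR) that DREAM is known to bind.
lin-36, chrIII:8021042-8021242, minus strand: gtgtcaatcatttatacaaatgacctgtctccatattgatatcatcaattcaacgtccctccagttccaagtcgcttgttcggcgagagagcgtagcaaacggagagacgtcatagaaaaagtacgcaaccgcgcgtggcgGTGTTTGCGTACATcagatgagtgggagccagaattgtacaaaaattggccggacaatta
lin-13, chrIII:7710265-7710465, minus strand: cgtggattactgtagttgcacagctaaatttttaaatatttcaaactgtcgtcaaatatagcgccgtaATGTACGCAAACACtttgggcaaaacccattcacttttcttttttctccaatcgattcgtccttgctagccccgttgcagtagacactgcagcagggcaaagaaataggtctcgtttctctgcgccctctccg
mep-1, chrIV:11523829-11524029, plus strand: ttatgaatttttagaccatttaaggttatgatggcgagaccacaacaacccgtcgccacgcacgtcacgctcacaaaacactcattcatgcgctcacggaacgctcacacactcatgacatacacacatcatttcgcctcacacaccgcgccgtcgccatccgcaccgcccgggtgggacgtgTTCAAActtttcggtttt
tam-1, chrV:4963680-4963880, minus strand: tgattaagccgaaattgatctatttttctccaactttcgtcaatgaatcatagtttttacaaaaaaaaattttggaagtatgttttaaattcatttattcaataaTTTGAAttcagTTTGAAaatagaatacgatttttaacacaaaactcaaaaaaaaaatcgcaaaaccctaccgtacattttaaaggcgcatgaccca

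The summits upstream of tam-1 lay in sequence poor in G and C, and the others did not. GC content was 26.9% in the window shown for tam-1 and 35.8% in its neighbour 200 bp further upstream, against a median of 42.8% (quartiles 37.8 and 48.3) over all 2482 conservative windows. It was 44.3% at lin-13, 46.3% at lin-36, 51.7% at mep-1 and 53.7% at the exonic tam-1 summit. None of the 6 windows held a 31-mer that occurs more than once in the genome, whereas 21.2% of all conservative windows had over 10% of such 31-mers.

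Of the motifs searched on both strands, only the CHR type was found at these summits. TTCGAA or TTTGAA was in 4 of the 6 windows (lin-13, mep-1 and both upstream windows of tam-1), against 42.5% of all conservative windows and 56.2% of windows of the same length that end at the 5' end of each protein-coding gene. The E2F type was searched as TTCCCGC or as TTCGCGC, and in the alternative form as TTGCCGC or as TTGGCGC. It was in none of the 6, against 16.4% and 6.29%. CTGCGTCTC was in none, against 7.05% and 2.34%, and GAGAGAGA in none, against 5.04% and 2.73%. The run shared by lin-36 and lin-13 was in 3 of the 2482 conservative windows and 6 of the 19973 windows at gene starts, and occurred 23 times in the nuclear genome. The remaining conservative window with it lay at -376 bp from C15C6.3 (negative distances are upstream), with a signal of 95.7. An 11-base part of the run, TGTTTGCGTAC, was far more common. It was in 24 conservative windows and 74 windows at gene starts, and occurred 1065 times in the nuclear genome. These matches describe the windows and name no bound factor.

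The gene with a summit nearest its start was lin-36, a THAP domain protein gene (WBGene00003021, chromosome III 8016648 to 8020873, minus strand). The peak spanned III 8020962 to 8021321, with the summit at -269 bp from the gene. Its signal was 98.2, rank 1473 of 2482, and its IDR score was 1000, the highest possible. Of all conservative peaks, 70.3% had that score. The summit was also at -35 bp from F44B9.11, a short non-coding RNA gene on the same strand, while the nearest other protein-coding start, on the opposite strand, was that of F44B9.2, with the summit at -1321 bp from it. In the ranking of replicate 1 the matching peak had a signal of 61.6 and rank 768, and it was in the thresholded list there. In replicate 2 it had a signal of 46.1, rank 3717 and an IDR score of 237, well under 830, the lowest score in any thresholded list. Scores in a replicate's own lists were derived from that replicate alone, so they do not measure agreement between the replicates.

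The strongest conservative summit among the members was at lin-13, a gene for a large zinc finger protein known to act with HPL-2 (WBGene00003002, III 7700338 to 7709491, minus strand). The peak lay at III 7710185 to 7710544, with the summit at -874 bp and an IDR score of 1000. Its signal of 116.2 ranked 1067, between the peak nearest to F46G11.4 (116.3) and that nearest to mml-1 (116.2), so it sat a little above the list's median of 108. The region upstream is shared with the divergent gene C03B8.3, from which this summit was at -1944 bp. Further conservative summits at -1667 bp (signal 84.8) and -1882 bp (6.55), beyond the 1000 bp window, were nearer to C03B8.3. At lin-13 the replicates stood the other way round from lin-36: the signal was 36.9 in replicate 1 (rank 2267, IDR score 326) and 70.5 in replicate 2 (rank 1111, score 813).

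The gene mep-1 encodes a zinc finger protein that works in a complex with the Mi-2 ATPase LET-418 and the deacetylase HDA-1 (WBGene00003218, IV 11524642 to 11527954, plus strand). Its conservative peak, IV 11523749 to 11524108, had its summit at -713 bp, a signal of 68.2 (rank 2266) and a score of 970. The summit lay inside M04B2.10 and M04B2.12, annotated non-coding RNAs that overlap on opposite strands. It was also at -323 bp from the non-coding RNA gene M04B2.13 and at 594 bp from M04B2.11. In the ranking behind the list a peak at -207 bp from mep-1 had almost the same signal, 66.1, but a score of 77, and a peak in the 3' UTR had 69.8 with a score of 722. Of these 3 peaks the one with the highest IDR score, not the highest signal, was in the list. In replicate 1 the peak at -170 bp had a signal of 51.9, above that at -765 bp (40), while in replicate 2 the peak at -712 bp had 48.4 and that at -246 bp had 11.4. A separate conservative summit at -2203 bp (signal 87.0), outside the window, lay 225 bp past the 3' end of gfl-1, which encodes a YEATS domain protein of the same kind of complexes as EKL-4.

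Alone among the members, tam-1, which encodes a RING finger and B-box protein that affects the silencing of transgenes, had more than 1 conservative summit (WBGene00006523, V 4958603 to 4963102, minus strand). The strongest, signal 86.1 and rank 1871, lay in a coding exon at 1145 bp from the 5' end (V 4961777 to 4962136), with a score of 876. The next was at -678 bp, with a signal of 72.9, rank 2210 and score 920 (V 4963600 to 4963959). The last, at -878 bp, had a signal of 9.75, rank 2424 and the same score of 920, and its peak overlapped the one before it by 160 bp. The nearest summit to each of these upstream peaks in replicate 1 was the same, at -707 bp. Replicate 2 had none within 200 bp of the one at -878 bp. Of these 3, the larger list held the exonic summit alone. The nearest other protein-coding start, that of str-208, was 5128 bp or more from each tam-1 summit.

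**Figure D1:**
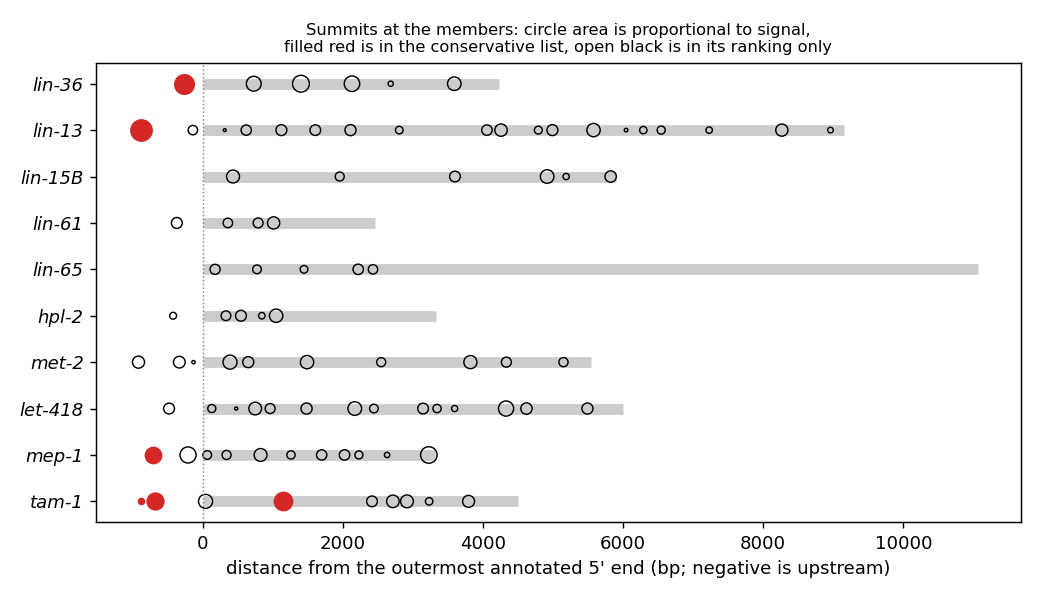
Positions of all summits in the ranking behind the conservative list at the 10 genes, by distance in bp from the outermost annotated 5' end (grey bars are the genes, circle area is proportional to signal). Filled red circles are the 6 summits in the conservative list, 5 of them upstream of their gene. Open black circles are in the ranking only.

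No member had a thresholded summit in both replicates. The share of all genes with one in both was not computed, so this absence is not read as a trait of the members. The list of replicate 1 held a summit at lin-36 and at no other member, against 6.99% of all genes with one. The list of replicate 2 held none at any of the 10, against 8.04% of all genes. The larger list named the same 4 genes as the conservative list, with 4 summits, against 11.9%. Of the members' 6 conservative summits, 1 matched a thresholded summit of replicate 1 within 200 bp and 5 matched one of neither replicate. Among all 2482 conservative summits 39.5% matched both replicates, 9.87% replicate 1 only, 20.3% replicate 2 only and 30.3% neither.

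**Figure D2:**
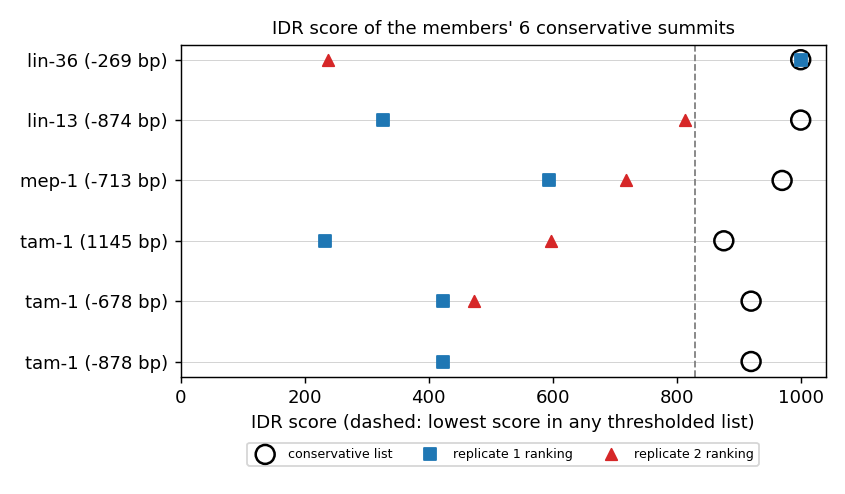
IDR score of the members' 6 conservative summits (open circles) and of the nearest summit within 200 bp in the ranking of replicate 1 (squares) and replicate 2 (triangles); the dashed line is 830, and the lowest summit has no triangle. The scores in the single replicates lay between 233 and 813, apart from that of lin-36 in replicate 1, which was 1000. Each was derived from 1 replicate alone and does not measure agreement between the replicates.

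In the rankings without a threshold all 10 genes had peaks, as did most genes: 73.7% of all protein-coding genes in the ranking behind the conservative list, 66.6% in replicate 1 and 80.6% in replicate 2. Within 1000 bp of a 5' end, the strongest signal in the ranking behind the conservative list was 116 at lin-13, 98.2 at lin-36, 72.9 at tam-1 and 68.2 at mep-1, against a median of 32.1 over all genes. It was 50 at met-2, 42.9 at lin-15B, 41.2 at let-418, 38.3 at lin-61, 30.0 at hpl-2 and 25.9 at lin-65. Thus 8 of the 10 lay above the median gene by this measure, with hpl-2 and lin-65 under it. The medians and percentages of genes given for these rankings include genes without a ranked peak, which count as weaker. Near starts 13875 genes had a ranked peak in the ranking behind the conservative list, 11603 in replicate 1 and 15324 in replicate 2. A member's standing among only the genes with a peak would be lower and was not computed. The genes near the median depend on the window: with peaks anywhere inside the gene counted as well, hpl-2 (45.5) lay above the median gene (38.6) and lin-61 (38.3) lay just under it. In replicate 2, near starts, the members under the median gene were let-418, above 42.5% of all genes, and lin-65, above 41.9%.

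The 4 genes with a conservative summit also led in each replicate, in a different order each time. In replicate 1 their strongest signal near a start was above that of 96.3% (lin-36), 94.9% (mep-1), 90.9% (lin-13) and 90.7% (tam-1) of all genes, and the next member, lin-61, stood at 79.7%. The mep-1 value there came from the peak at -170 bp (51.9), not from the peak at -765 bp (40) that matched its conservative summit. In replicate 2 the values were 95.6% (lin-13), 89.8% (mep-1), 89.2% (tam-1) and 88.3% (lin-36), and the next was hpl-2 at 82.4%. That hpl-2 peak, at 997 bp, lay just inside the window. The conservative list was built from these same libraries, so the lead of the 4 genes is no independent check. In the percentages above, genes with no ranked peak near a start again count as weaker. The gene lin-36 stood highest of the 4 in replicate 1 and lowest in replicate 2, and no order within the 4 can be read from these values.

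**Figure D3:**
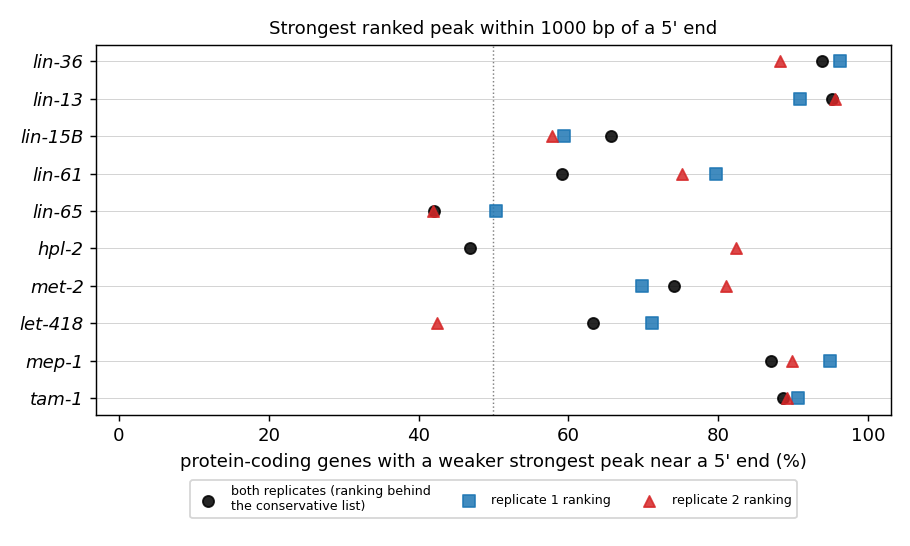
For each gene, the percentage of all 19973 protein-coding genes whose strongest ranked peak within 1000 bp of a 5' end is weaker or absent. Circles are the ranking behind the conservative list, squares replicate 1 and triangles replicate 2. The dotted line is the median gene, with genes that have no ranked peak included. The genes lin-36, lin-13, mep-1 and tam-1 lie at 87.0% or higher in all 3 rankings, and hpl-2 has no square because replicate 1 has no ranked peak there.

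Among the members without a thresholded summit, the methylation genes were spread widely. At met-2 (WBGene00019883, III 8375300 to 8380848, plus strand) the strongest of 10 ranked peaks was in a coding exon at 392 bp, with a signal of 50 and rank 10551 of 83980. The gene lin-65 (WBGene00022149, chromosome I 1755329 to 1766400, plus strand) is the longest member, at 11072 bp, and had 5 peaks in the ranking behind the conservative list, all intronic, the strongest with a signal of 27.5 and rank 37457. In the ranking behind the larger list it had 12, the strongest with a signal of 32.8 and rank 29707 of 88717, and 1 of these, at 3814 bp, was in a coding exon. Its nearest conservative summit was 54834 bp away, the farthest of the 10. The gene lin-61 (WBGene00003041, chromosome I 7248827 to 7251282, minus strand), for an MBT repeat protein that binds methylated histone H3, had 4 ranked peaks with signals up to 38.3.

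The THAP domain gene lin-15B and the Mi-2 gene let-418 likewise had only peaks below the threshold. At lin-15B (WBGene00023497, X 15726123 to 15732025, plus strand) there were 6 ranked peaks and the strongest, signal 47.1, was in a coding exon at 4911 bp. At let-418 (WBGene00002637, V 5826833 to 5832831, plus strand) there were 14, the strongest in a coding exon at 4331 bp with a signal of 58.5. A conservative peak of signal 117 (rank 1064, score 1000) had its summit 179 bp past the 3' end of let-418 and overlapped the gene by 2 bp. That summit was at -821 bp from srh-76, a chemoreceptor-type gene, and does not count for let-418 under the summit rule.

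The HP1 gene hpl-2 (WBGene00001996, III 10752195 to 10755530, minus strand) had no thresholded peak of its own but lay downstream of the strongest peak of the whole conservative list. Within the rule its strongest ranked peak, in an intron at 1041 bp, had a signal of 45.5 and rank 13777, and replicate 1 listed no peak within 1000 bp of its 5' ends. Replicate 2 listed one in a coding exon at 997 bp, with a signal of 39.5 and rank 6473 of 90719. Near starts this placed hpl-2 above 82.4% of all genes, with genes that have no ranked peak counted as weaker. The replicates therefore differed at hpl-2. The value of 82.4% depends on the window, since the peak at 1041 bp lay just beyond the 1000 bp limit. Without that peak hpl-2 stood above 46.9% of all genes near starts in the ranking behind the conservative list. The gene is the last of 3 minus-strand genes in close tandem order, after K01G5.10 and rnf-113, with 0 bp annotated between those 2 and 93 bp between rnf-113 and hpl-2. The top conservative summit, III 10759268 with a signal of 1259, lay 746 bp upstream of K01G5.10 and 3738 bp upstream of hpl-2. It is nearer to tasp-1, the taspase gene on the other strand, from which it was at -39 bp. At this site the thresholded replicate lists gave 605 (replicate 1, rank 1) and 671 (replicate 2, rank 13). The summit ranked 9 in the larger list and 2 in the ranking behind the conservative list. The files do not show whether the 3 genes are transcribed together.

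**Figure D4:**
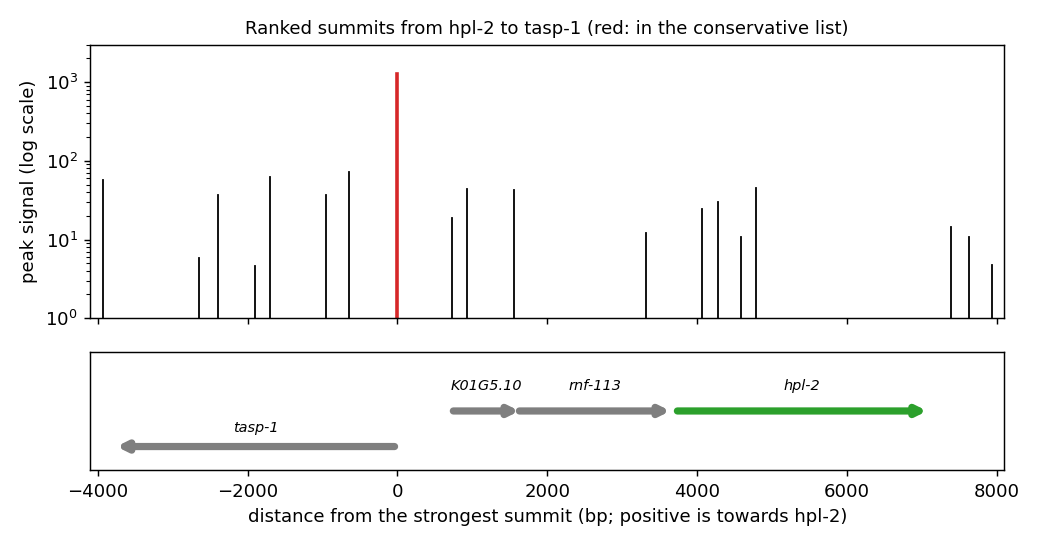
Signal (log scale) of the ranked summits around hpl-2, by distance in bp from the strongest summit of the conservative list; arrows are genes pointing in the direction of transcription. The red line, at 1259, is the only summit here in the conservative list, and the ranked summits within hpl-2 reach 45.5.

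A tandem arrangement also holds for met-2, which starts 127 bp after the end of lmbr-1 on the same strand. Its nearest conservative summit was 18692 bp away. Apart from hpl-2 and met-2, the gap to the next same-strand gene upstream ran from 918 bp at lin-65 to 20217 bp at lin-13. Over the 10 members the nearest conservative summit lay at a median of 4957 bp from a 5' end, against 18963 bp (quartiles 5957 and 45166) for all protein-coding genes.

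The members' summits had lower signals than most of those at DREAM genes. Of the 4 members with a conservative summit, lin-13 alone had one at or above the list's median signal. Of 9 genes, 8 for DREAM subunits and hda-1 for a deacetylase partner, 6 had a conservative summit, and 5 of these lay above the list's median signal. They were led by lin-53 (473), for a histone chaperone, lin-54 (436, a summit nearer to rpl-12), for the CHR-binding subunit, and the core subunit gene lin-9 (353). There was no summit at dpl-1 or at lin-37. Of all protein-coding genes, 10.6% had a conservative summit and 6.16% had one at or above the list's median signal. The difference between the groups was not tested.

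Other related groups gave 1 to 5 genes each, beside the same 10.6% of all protein-coding genes. Over all 38 listed related genes, the DREAM group included, 17 (44.7%) had a conservative summit. Of 4 class C genes epc-1 had a summit (394, at -225 bp) and trr-1 and mys-1 had none. Of 4 class A genes lin-56 had one (81.8), and lin-8 and lin-15A had none. Among 9 further methylation and heterochromatin genes 3 had one, namely cec-5 (142, nearer to nol-10), the chromodomain gene cec-6 (111) and set-25 (86.2), for a methyltransferase that acts after MET-2, while set-32 and set-6 had none. Among 5 NuRD and Mi-2 genes egl-27 had one (131), and lin-40 and rba-1 had none. Of 7 germline chromatin genes 5 had one, the strongest at mrg-1 (146, nearer to spcs-2), zfp-1 (130) and mes-2 (89.6), with none at mes-3 or mes-4.

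**Figure D5:**
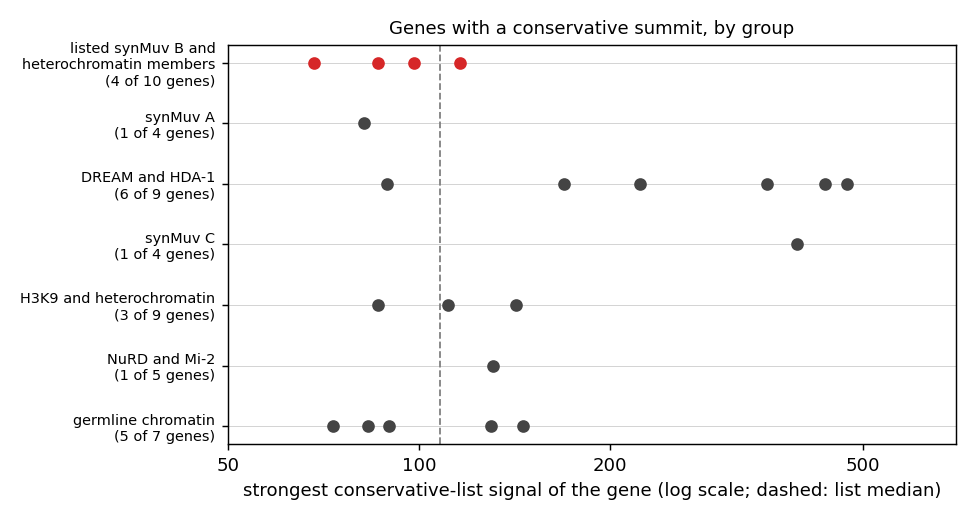
Strongest conservative-list signal (log scale) of each gene with a conservative summit, for the 10 members (red) and 6 groups of related genes (grey); the numbers in parentheses are genes with a summit of genes listed, and the dashed line is the list's median of 108. The 4 members lie between 68.2 and 116, while 5 of the 6 DREAM-group genes lie to the right of the median. Of all protein-coding genes, 10.6% had a conservative summit and 6.16% had one at or above that median.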

How the data were processed

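Per the labels, EKL-4 was tagged in strain RW12207 and chromatin was sheared by sonication to 200 to 800 bp. Text files deposited with the data give the build as ce11 and name IDR-ranked and IDR-thresholded peak lists, each derived from 1 replicate's alignments or from both. Which aligner and peak caller were run is not given in the sources used here. As deposited, the signal is the caller's strength of a peak, and the score is the authors' IDR score, at most 1000. Each thresholded list starts at a score of 830. Depth is unknown, and the control was not analysed here.

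Here, summits (start plus offset, made 1-based) were assigned to Ensembl 115 genes, whose build has the chromosome names of ce11 and lengths that no peak exceeds. Ranks are by signal within a list. Replicate summits were matched within 200 bp. No p-values were computed: there is 1 group, and genes and peaks are not replicates. The members and the related genes were chosen with earlier results of these data known. Named genes are the members, genes sharing or nearest to their summits, rank neighbours of the strongest, and up to 3 related genes with and 2 without a summit per group. A few others were named after their values were seen (C15C6.3, gfl-1, srh-76, and the genes upstream of hpl-2 and met-2). The assignment was tested on 200 planted summits, all placed correctly. Python 3.11.15, numpy 2.4.6, pandas 2.3.3 and matplotlib 3.10.9 were used. Alternatives were other windows, lists, thresholds and ways to assign a summit.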

Additional observations from a re-analysis of the deposited data

How the results depend on the processing

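The count of 4 members with a conservative summit, and of 6 summits at them, was the same or within 1.5 times in 7 of 13 alternatives. With a 500 bp window and genes' insides counted, 2 members (lin-36 and tam-1) and 2 summits were left, against 8.80% of all genes. With 5' ends only and 500 bp, 1 member (lin-36) and 1 summit were left. With signal at or above the list's median, 1 member (lin-13) and 1 summit were left, against 6.16% of all genes. With an IDR score of 1000 only, an alternative chosen after seeing the data, 2 members (lin-36 and lin-13) and 2 summits were left, against 7.83%. With 1 replicate left out, the lists of the other gave 0 to 1 members and 0 to 1 summits. With peak intervals in place of summits let-418 was added, giving 5 members against 12% of all genes. Leaving out peaks that overlap a stronger one gave 5 summits, and leaving out repeated sequence changed neither count (both chosen after seeing the data). The count of 0 members with a thresholded summit in both replicates says nothing about ways to match replicates, since the list of replicate 2 had none at any member. No paired analysis was possible because there is only 1 group. The cause of these changes was not tested beyond the stricter rules themselves. The strongest signal of lin-36 was 61.6 in the list of replicate 1 alone. The absence of a summit from a list says only that no peak passed there at a depth that is not known.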
